A study of Mus musculus with 8 samples.

Results

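The transcription factors described here are 10 genes out of the 54532 in the deposited expression table. They are the rows of the table with these gene names. Gata4, Mef2c, Tbx5, Myocd and Sall4 were delivered to the cells on lentiviral constructs, and Nkx2-5, Hand2, Tbx20, Gata6 and Mef2a are regulators of heart development for which no construct was delivered. The cells were MICFs, cardiac fibroblasts taken from infarcted hearts of male C57BL/6 mice, a mixed primary preparation and not a clonal line. All 8 libraries came from cells of the same genotype label, MGTMyoS overexpression. They had received the MGT construct, on which Mef2c, Gata4 and Tbx5 share 1 polycistronic transcript, separate viruses for Myocd and Sall4, and eGFP, all behind a minimal promoter that doxycycline switches on.

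The in vivo cells had been injected into freshly infarcted mouse hearts, whose hosts drank doxycycline and were given tacrolimus, methylprednisolone and mycophenolate mofetil against rejection. The in vitro cells stayed in a culture medium with doxycycline, SB431542, which blocks TGF-beta receptor kinases, and baricitinib, which blocks Janus kinases. The host drugs and the medium differ between the groups together with the heart itself, so their parts cannot be told apart. Sorted eGFP+ cells were sequenced on Day 7 (1 week) and Day 14 (2 weeks), with 2 libraries in each of the 4 groups. No library of cells without the constructs was analysed here, so RNA from a construct and RNA from the cell's own gene cannot be told apart in the level of Gata4, Mef2c, Tbx5, Myocd or Sall4. In bulk samples such as these, fewer cells expressing a factor and less RNA of it per cell cannot be told apart either. The animals or wells behind a replicate are not stated, so each p-value measures only the spread between these samples, which may be technical.

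Direct cardiac reprogramming converts fibroblasts toward cardiomyocytes by forcing the expression of heart transcription factors. Gata4 is a zinc finger factor, Mef2c a MADS-box factor and Tbx5 a T-box factor, and all of them bind the regulatory DNA of sarcomere and ion channel genes in the developing heart. Myocd (myocardin) is a coactivator that works through serum response factor on muscle genes, and Sall4 is a zinc finger factor best known from early embryos and pluripotent cells. Of the members without a construct, Nkx2-5 is the homeobox factor of early heart progenitors, Hand2 is a basic helix-loop-helix factor of the right ventricle and of cardiac fibroblasts, Tbx20 is a T-box factor of the heart, and Gata6 and Mef2a are paralogs of Gata4 and Mef2c.

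Between 12304242 and 14546904 fragments per library lay on genes. Levels are given as FPKM, the deposited values, which scale the fragments on a gene to the length of its exons and to the depth of the library. The markers of the fibroblast label were abundant, with a summed level of 11762 to 15534 FPKM over 12 genes in vivo and 2659 to 4217 FPKM in vitro. Macrophage markers were present in every library too, with a summed level of 2009 to 3150 FPKM in vivo and 4951 to 6073 FPKM in vitro. Lyz2, the lysozyme of myeloid cells, made up much of that difference, and without it the sum was 1034 to 1697 FPKM in vivo and 1734 to 2362 FPKM in vitro. At 1 week 1 of the 12 macrophage markers was called lower in vivo (Lyz2), 1 higher (Fcgr1) and 10 did not pass, and at 2 weeks 6 were called lower and 6 did not pass. The 12 cardiomyocyte markers summed to 10.6 to 26.0 FPKM in vivo and 111 to 636 FPKM in vitro.

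By FPKM, which divides by all exon bases, Gata4 and Tbx20 were the highest of the 10 factors in every group and Gata6 was the next. At 1 week in vivo the mean was 36.6 FPKM for Gata4, 33.2 FPKM for Tbx20 and 23.5 FPKM for Gata6, and the libraries of these neighbours did not overlap. In the other 3 groups the libraries of Gata4 and Tbx20 overlapped, so their order is not resolved there. Mef2a, Sall4, Tbx5, Hand2 and Mef2c lay between 4.09 and 17.2 FPKM in all libraries, Myocd was lower at 1.75 to 4.77 FPKM, and Nkx2-5 was at the limit of detection. The order depends on the length used. With FPKM rescaled from exon bases to coding bases, Tbx20 was highest in every group. At 1 week in vivo Mef2a (113 and 118) was then above Gata4 (106 and 110), which was above Gata6 (73.0 and 75.5). The fragments still came from all exon bases, so the rescaling raises genes with little coding sequence most. Coding bases are 11.2% of the exon bases of Tbx20 and 10.1% of those of Mef2a, against 34.0% for Gata4. The rescaled order is therefore not an order of RNA levels for genes without a construct.

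**Figure D1:**
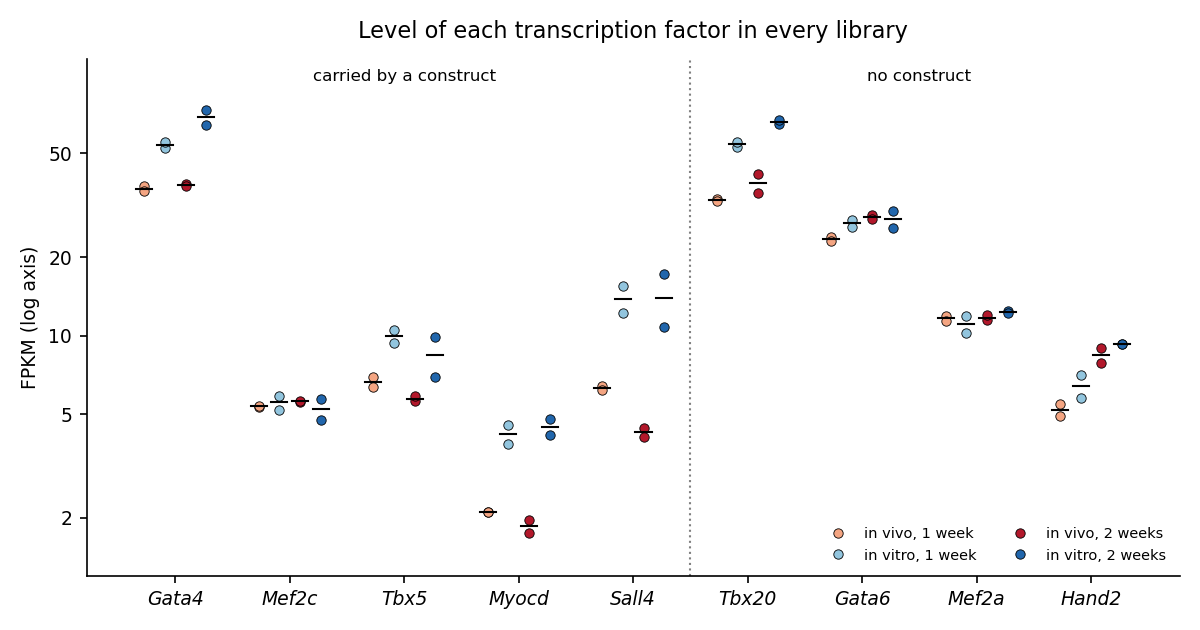
FPKM (log axis) of 9 factors in each of the 8 libraries, with a point for each library, a bar for the mean of the 2 libraries of a group, and a dotted line between the factors carried by a construct and those with none. In vivo libraries lie below in vitro libraries of the same week for Gata4, Tbx5, Myocd, Sall4, Tbx20 and Hand2, while those of Mef2c overlap. For Gata6 they do so at 1 week only and for Mef2a at 2 weeks only. Hand2 passed no threshold at either week. With 2 libraries a group, such separation alone is weak evidence, and its share over all genes was not counted. Nkx2-5, with 0 to 5 fragments a library, is not drawn.

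The delivered factors did not differ alike between the heart and culture. Sall4 and Myocd were the members with the largest differences, Gata4 and Tbx5 differed less, and Mef2c hardly at all. At 1 week 1 of the 9 members tested passed both thresholds (adjusted p below 0.01, log2 difference beyond 1 either way), and it was lower in vivo. Over all 15708 genes tested 5.07% were called lower and 7.79% higher in that comparison. At 2 weeks 2 of 9 members were called, both lower, beside 8.05% of all genes called lower and 9.02% called higher. Among the 934 tested genes to which the table gives a transcription factor family, 4.07% were called lower at 1 week and 5.25% at 2 weeks. At an adjusted p below 0.05 and with no limit on the fold, 5 of 9 members (Gata4, Tbx5, Myocd, Sall4 and Tbx20) were lower at 1 week, where 20.6% of all genes were, and the same 5 members at 2 weeks, where 25.2% of all genes were. The members were too few for these shares to be compared by a test. The median log2 difference of the 9 members was -0.56 at 1 week and -0.53 at 2 weeks, whereas that of all genes tested was -0.01 and -0.00.

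Sall4 (ENSMUSG00000027547) lies on the minus strand of chromosome 2 at 168748332 to 168767943 of mm10. Its level was 6.39 and 6.20 FPKM in the 2 in vivo libraries at 1 week and 12.2 and 15.4 FPKM in vitro. At 2 weeks it was 4.43 and 4.09 FPKM in vivo and 17.2 and 10.7 FPKM in vitro. Every in vivo library was below every in vitro library, and the in vitro replicates were far apart at 2 weeks. Here and in what follows, a gene that fell or rose in vivo did so relative to culture of the same week. In vivo Sall4 fell by 1.11 on the log2 scale at 1 week (SE 0.22, limma adjusted p = 0.0059) and fell by 1.65 at 2 weeks (SE 0.22, adjusted p = 0.00081). The 1-week call was lost when In vivo-1w replicate 1 was left out (adjusted p = 0.030), likewise In vivo-1w replicate 2 (adjusted p = 0.034), In vitro-1w replicate 1 (adjusted p = 0.015) or In vitro-1w replicate 2 (log2 difference -0.94, adjusted p = 0.040), and with the replicate number as a block (adjusted p = 0.011). The adjusted p of Sall4 at 1 week ranged from 0.00051 to 0.040 over the alternatives.

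Myocd (ENSMUSG00000020542, minus strand of chromosome 11, 65176561 to 65269989) had the lowest level of the delivered factors. It measured 2.11 and 2.10 FPKM in vivo at 1 week and 3.83 and 4.52 FPKM in vitro, and at 2 weeks 1.75 and 1.96 FPKM in vivo and 4.77 and 4.14 FPKM in vitro. These values rest on 127 to 434 fragments a library, and the in vivo and in vitro libraries did not overlap. The log2 difference was -0.95 at 1 week (SE 0.13, adjusted p = 0.0014), short of the fold threshold. At 2 weeks in vivo Myocd fell by 1.22 on the log2 scale (SE 0.13, adjusted p = 0.00035), to 41.6% of the in vitro mean. A pseudocount of 1 brought the 2-week difference to -0.93, below the fold threshold, and leaving out In vitro-1w replicate 1 brought the 1-week difference to -1.07 with an adjusted p of 0.0050, past it.

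Gata4 (ENSMUSG00000021944, minus strand of chromosome 14, 63198922 to 63271692) measured 37.3 and 35.9 FPKM in vivo at 1 week against 52.6 and 55.4 FPKM in vitro. At 2 weeks it measured 38.0 and 37.5 FPKM in vivo against 73.2 and 64.5 FPKM in vitro. The in vivo libraries of both weeks lay close together, below all in vitro libraries. The log2 difference was -0.56 at 1 week (SE 0.07, adjusted p = 0.0011) and -0.86 at 2 weeks (SE 0.07, adjusted p = 0.00011), so the mean in vivo was 67.8% and 54.9% of that in vitro. Both differences were larger than the spread between replicates and smaller than the fold threshold.

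Tbx5 (ENSMUSG00000018263, plus strand of chromosome 5, 119832668 to 119885219) measured 6.92 and 6.35 FPKM in vivo and 9.38 and 10.5 FPKM in vitro at 1 week. At 2 weeks it measured 5.59 and 5.85 FPKM in vivo and 9.88 and 6.95 FPKM in vitro. The groups did not overlap, although 1 in vitro library at 2 weeks came near the in vivo range of 1 week. The log2 difference was -0.57 at 1 week (SE 0.16, adjusted p = 0.026) and -0.53 at 2 weeks (SE 0.16, adjusted p = 0.030), neither of which passed the threshold.

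Mef2c (ENSMUSG00000005583, plus strand of chromosome 13, 83504034 to 83667080) was level across the study in the deposited values. It measured 5.34 and 5.38 FPKM in vivo and 5.20 and 5.88 FPKM in vitro at 1 week, and 5.57 and 5.61 FPKM in vivo and 5.70 and 4.73 FPKM in vitro at 2 weeks. The groups overlapped at both weeks. Over the alternatives its log2 difference ranged from -0.38 to 0.04 at 1 week (lowest limma adjusted p = 0.033) and from -0.22 to 0.24 at 2 weeks. No alternative called it. The 95% interval of its log2 difference was -0.31 to 0.22 at 1 week and, a week later, -0.16 to 0.37, so a difference as large as that of Sall4 or Myocd lies outside it. The FPKM of Mef2c divides by 15715 exon bases, of which 8.27% code for protein, whereas 34.0% of the exon bases of Gata4 and 33.3% of those of Tbx5 do. A construct that holds coding sequence would therefore add less to the FPKM of Mef2c than to that of Gata4 for the same number of transcripts, and levels of these genes were compared with each other per coding kilobase.

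**Figure D2:**
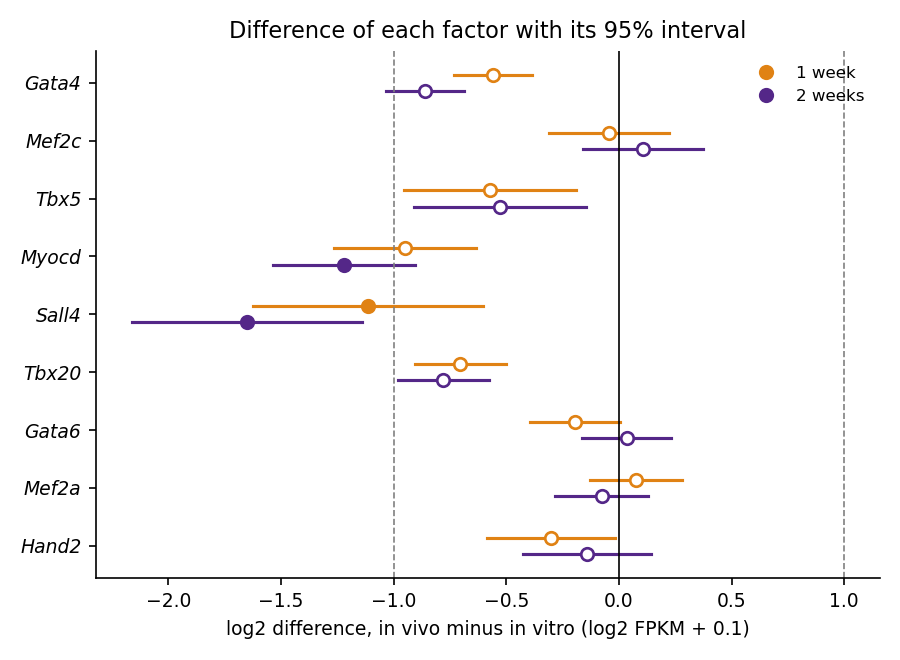
Log2 difference, in vivo minus in vitro, of log2(FPKM + 0.1) for 9 factors at 1 and 2 weeks, with 95% intervals from the limma fit of 2 libraries a group. Filled points passed both thresholds (dashed lines at a difference of 1 either way): Sall4 at both weeks and Myocd at 2 weeks. The intervals of Mef2c, Gata6 and Mef2a take in 0 at both weeks.

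Since Mef2c, Gata4 and Tbx5 are carried on 1 transcript, their ratios within a library were examined, which do not depend on the scaling between libraries. Fragments on all exon bases were divided by the coding length, so the size of a ratio depends on the length chosen. Its log2 difference between conditions does not. Per coding kilobase the ratio of Mef2c to Gata4 was 0.588 to 0.615 in the 4 in vivo libraries and 0.301 to 0.436 in the 4 in vitro libraries. The mean log2 ratio was 0.74 higher in vivo (exact two-sided permutation test, p = 0.0286, which is the smallest 4 against 4 libraries can give, and 0.048 after Benjamini-Hochberg adjustment over 5 ratios). The difference was 0.51 at 1 week alone and 0.97 at 2 weeks alone. The ratio of Mef2c to Tbx5 was also higher in vivo, at 3.11 to 4.01 against 2.24 to 2.74, with a log2 difference of 0.59 (exact permutation p = 0.0286, adjusted p = 0.048). It follows from Mef2c to Gata4 and Tbx5 to Gata4, so it is not a separate test. The adjusted p of 0.048 rests on several of the 5 ratios, this one among them, tying at the smallest p. The ratio of Tbx5 to Gata4 overlapped between the conditions, at 0.150 to 0.189 in vivo and 0.110 to 0.193 in vitro (log2 difference 0.15, exact permutation p = 0.51, adjusted p = 0.51).

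The factors on separate viruses were set against Gata4 in the same way. The ratio of Myocd to Gata4 was 0.0358 to 0.0455 in vivo and 0.0499 to 0.0634 in vitro, a log2 difference of -0.41 (exact permutation p = 0.0286, adjusted p = 0.048). The ratio of Sall4 to Gata4 was 0.0639 to 0.101 in vivo and 0.0978 to 0.164 in vitro, which overlapped, with a log2 difference of -0.69 (exact permutation p = 0.0857, adjusted p = 0.107). With permutations only within replicate numbers the adjusted p of the 3 ratios that passed was 0.093. Those arrangements are too few to give a p under 0.05 for any values, so this setting cannot decide. These ratios count RNA from the cell's own genes as well, and the share of it was not measured.

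**Figure D3:**
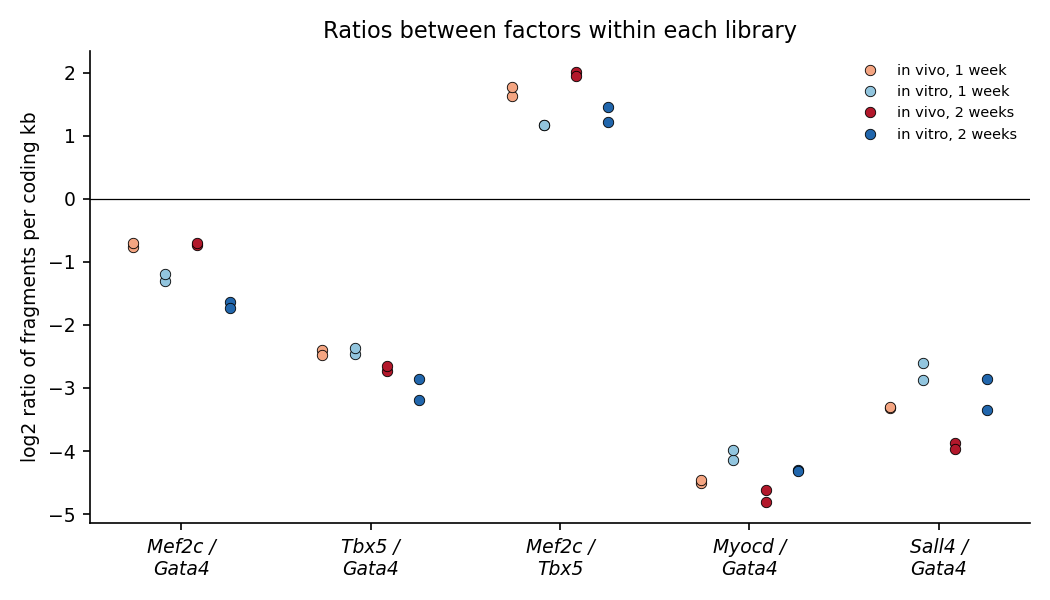
Log2 ratio of fragments per coding kilobase between delivered factors, with a point for each of the 8 libraries and no error bars. In vivo libraries lie above in vitro libraries for Mef2c to Gata4 and for Mef2c to Tbx5, below them for Myocd to Gata4, and overlap them for Tbx5 to Gata4 and Sall4 to Gata4.

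Of the members without a construct, Tbx20 (ENSMUSG00000031965, minus strand of chromosome 9, 24718138 to 24774303) differed most between the heart and culture. It measured 33.5 and 33.0 FPKM in vivo and 52.9 and 55.4 FPKM in vitro at 1 week, and 35.2 and 41.7 FPKM in vivo and 64.6 and 67.0 FPKM in vitro at 2 weeks. The in vivo libraries lay below all in vitro libraries. The log2 difference was -0.70 at 1 week (SE 0.08, adjusted p = 0.00072) and -0.78 at 2 weeks (SE 0.08, adjusted p = 0.00035), larger than the replicate spread but under the fold threshold. Without the scaling between libraries that the deposited values include, Tbx20 passed it at both weeks (-1.05 and -1.11), where the median of all genes moved to -0.34 and -0.33. By the deposited values, with that scaling, Tbx20 in vivo stood at 61.3% and 58.4% of its in vitro mean, beside 67.8% and 54.9% for Gata4. The 11 mesothelial and epicardial markers were also lower in vivo, with a summed level of 60.3 to 67.3 FPKM against 323 to 604 FPKM in vitro, and their part in the levels of Tbx20 or Gata4 was not tested.

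Hand2 (ENSMUSG00000038193, plus strand of chromosome 8, 57320983 to 57324633) measured 5.45 and 4.90 FPKM in vivo and 7.07 and 5.78 FPKM in vitro at 1 week, and 7.88 and 8.94 FPKM in vivo and 9.26 FPKM in both in vitro libraries at 2 weeks. The 2-week libraries were above the 1-week libraries in both places. The log2 difference between places was -0.30 at 1 week (SE 0.12, adjusted p = 0.083) and -0.14 at 2 weeks (SE 0.12, adjusted p = 0.37). Without the scaling between libraries it was -0.64 at 1 week (adjusted p = 0.0054) and -0.47 at 2 weeks (adjusted p = 0.019), short of the fold threshold.

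The 250 bases before the annotated start are shown for Tbx20 and Hand2, the members without a construct whose libraries separated most by place and by time, with matches in capitals. They are RefSeq sequences of GRCm38.p6, read 5′ to 3′ in the direction of the gene, and 5 of the 10 members matched a window of that table. Both strands were searched for GATAA (GATA factors), AGGTGT (T-box factors), AAGTG (NKX factors), CANNTG (the E-box of basic helix-loop-helix factors), the CArG box of serum response factor and the MEF2 site. The capitals mark all but the E-box.
Tbx20, chr9:24774304-24774553, minus strand: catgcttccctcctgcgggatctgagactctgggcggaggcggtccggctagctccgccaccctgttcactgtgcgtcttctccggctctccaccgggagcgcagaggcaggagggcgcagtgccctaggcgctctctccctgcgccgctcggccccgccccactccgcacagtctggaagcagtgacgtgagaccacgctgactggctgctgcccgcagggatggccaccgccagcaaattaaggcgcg
Hand2, chr8:57320733-57320982, plus strand: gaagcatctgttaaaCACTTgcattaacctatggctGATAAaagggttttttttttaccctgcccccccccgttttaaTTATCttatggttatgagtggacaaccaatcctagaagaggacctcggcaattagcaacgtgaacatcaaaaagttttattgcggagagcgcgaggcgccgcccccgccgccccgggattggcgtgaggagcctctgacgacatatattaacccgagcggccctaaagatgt

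The Hand2 window holds 2 matches to GATAA, at 214 and 172 bases before the start, and 1 match to AAGTG at 235 bases, which overlaps 1 of its 2 E-box matches. The Tbx20 window holds none of the 6 motifs. Of 32817 promoter windows, 22.6% hold GATAA, 11.8% AGGTGT, 40.7% AAGTG, 66.2% CANNTG, 1.47% a CArG box and 2.92% a MEF2 site. A match or its absence describes the letters of these windows only.

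Gata6 and Mef2a, the paralogs of delivered factors, were not called in any comparison. Gata6 (ENSMUSG00000005836) measured 23.9 and 23.1 FPKM in vivo and 27.9 and 26.0 FPKM in vitro at 1 week, and 29.0 and 28.1 FPKM in vivo and 30.1 and 25.8 FPKM in vitro at 2 weeks. Its log2 difference was -0.20 at 1 week (SE 0.08, adjusted p = 0.10) and 0.03 at 2 weeks (SE 0.08, adjusted p = 0.77). Mef2a (ENSMUSG00000030557, minus strand of chromosome 7, 67231163 to 67372858) measured 10.2 to 12.5 FPKM over all 8 libraries. The 95% interval of its log2 difference was -0.13 to 0.28 at 1 week and -0.28 to 0.13 at 2 weeks. Without the scaling between libraries the difference of Gata6 was -0.54 at 1 week (adjusted p = 0.0026) and that of Mef2a was -0.41 at 2 weeks (adjusted p = 0.0086), both short of the fold threshold.

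Paralogs can share fragments where their sequences are the same. The longest run of bases that the coding sequences of Mef2c and Mef2a share is 17 bases, at coding bases 76 to 92 of both, and that of Tbx5 and Tbx20 is 11 bases. They are shown as the longest identical stretches between the coding sequences. Alignment with mismatches and the non-coding exon bases were not examined.
Mef2c and Mef2a: tttggattgatgaagaa
Tbx5 and Tbx20: ccatcatcccc

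Gata4 and Gata6 share a run of 18 coding bases. How the authors counted a fragment that maps to more than 1 gene is not given in the sources used here.

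Nkx2-5 (ENSMUSG00000015579, minus strand of chromosome 17, 26838664 to 26841565) was close to absent in all groups. It had 3 and 5 fragments in vivo and 2 and 0 fragments in vitro at 1 week, and 0 fragments in both in vivo libraries and 4 and 1 fragments in vitro at 2 weeks. A count of 0 allows 3 fragments, which is 0.128 to 0.178 FPKM in these libraries. Only 2 libraries were above 3 fragments, 1 in vivo at 1 week and 1 in vitro at 2 weeks, so no difference between groups was detectable at this depth, and Nkx2-5 was left out of the test by the filter on low values. These limits cover counting error only, since fragments copied by PCR are not independent molecules.

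Between 1 and 2 weeks none of the 9 members tested passed the thresholds in limma, neither in culture (3.81% of all genes called) nor in the heart (2.18% of all genes called). Without adjustment 3 members in vitro and 4 in vivo had a p under 0.05, and limma voom on the recovered fragments called 0 in either place. At an adjusted p below 0.05 with no limit on the fold, 2 members passed in vitro (25.1% of all genes) and 1 in vivo (15.8% of all genes). Hand2 had the largest difference, 0.53 on the log2 scale in vitro (SE 0.12, adjusted p = 0.021) and 0.69 in vivo (SE 0.12, adjusted p = 0.0125). Gata4 was 0.35 higher at 2 weeks in vitro (SE 0.07, adjusted p = 0.016) and 0.04 higher in vivo (SE 0.07, adjusted p = 0.73). Sall4 was lower by 0.55 at 2 weeks in vivo (log2 difference -0.55, SE 0.22, adjusted p = 0.13), with a difference of -0.01 in vitro (SE 0.22, adjusted p = 0.98).

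Whether the difference between the heart and culture itself changed between the weeks was tested as an interaction. None of the 9 members passed in limma (1.73% of all genes called), 1 had an unadjusted p under 0.05, and limma voom called 0. The interaction was -0.30 for Gata4 (SE 0.10, adjusted p = 0.12) and -0.54 for Sall4 (SE 0.30, adjusted p = 0.31). The growing distance of both factors between heart and culture is therefore not resolved from the replicate spread.

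Other regulators of heart development were examined beside the members as a list of 44 genes, of which 34 could be tested. At 1 week 2 were higher in vivo, 4 were lower and 28 did not pass, with a median log2 difference of -0.22. At 2 weeks 2 were higher, 5 were lower and 27 did not pass, with a median of -0.30. Over all genes 7.79% were called higher and 5.07% lower at 1 week, and 9.02% and 8.05% at 2 weeks. The counts of the list were not tested against these shares. In vivo Gata5, a further cardiac GATA factor, fell by 2.57 on the log2 scale at 1 week (adjusted p = 0.00044) and fell by 2.44 at 2 weeks (adjusted p = 0.00044). Its mean was 0.221 ± 0.018 FPKM in vivo and 1.82 ± 0.37 FPKM in vitro at 1 week (SD, n = 2), far below that of Gata4 and Gata6.

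In vivo Wt1, a zinc finger factor of the epicardium and mesothelium, fell by 1.94 at 1 week (adjusted p = 4.33e-05) and fell by 2.42 at 2 weeks (adjusted p = 1.31e-05). Wt1 is also 1 of the mesothelial and epicardial markers, of which 8 of 11 were called lower in vivo at 1 week and 9 of 11 at 2 weeks. In vivo Hey2, a repressor downstream of Notch signalling in the ventricle, fell by 1.49 at 1 week (adjusted p = 0.0011), and its difference at 2 weeks was -0.33 (adjusted p = 0.22). Smyd1, a muscle histone methyltransferase, was called lower at 2 weeks, with 0 and 4 fragments in the in vivo libraries against 50 to 59 in vitro.

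Nfatc1, the NFAT factor known from the endocardium and heart valves, rose in vivo by 1.55 at 1 week (adjusted p = 8.84e-05) and by 1.67 at 2 weeks (adjusted p = 4.91e-05), with a mean of 11.2 ± 0.66 FPKM in vivo and 3.76 ± 0.32 FPKM in vitro at 1 week (SD, n = 2). Endothelial markers were higher in vivo as well, 9 of 12 called at 1 week and 6 of 12 at 2 weeks, with a summed level of 184 to 191 FPKM in vivo and 62.8 to 107 FPKM in vitro, and their part in the level of Nfatc1 was not tested. Esrrg, an orphan nuclear receptor of oxidative metabolism, rose in vivo by 2.06 at 1 week (adjusted p = 0.0044), with a difference of 1.55 at 2 weeks that did not pass (adjusted p = 0.012). Its counts were low, at 52 to 62 fragments in vivo and 6 to 14 in vitro at 1 week. Zfpm2, the cofactor that binds GATA factors in the heart, rose in vivo by 1.08 at 2 weeks (adjusted p = 0.00033), with 3.25 ± 0.32 FPKM in vitro and 7.02 ± 0.90 FPKM in vivo (SD, n = 2). At 1 week its difference was 0.37 (adjusted p = 0.039), with 5.30 ± 0.10 FPKM in vitro and 6.89 ± 0.21 FPKM in vivo.

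Genes of heart, smooth and skeletal muscle that the factors are known to act on were followed as a list of 38. Of these, 34 could be tested. At 1 week 12 were lower in vivo, 4 were higher and 18 did not pass, and at 2 weeks 16 were lower, 5 were higher and 13 did not pass. Over all genes 5.07% were called lower and 7.79% higher at 1 week, and 8.05% and 9.02% at 2 weeks. The median log2 difference of the 34 was -0.59 at 1 week and -1.08 at 2 weeks. Among the smooth muscle genes of the list (Acta2, Tagln, Cnn1, Myh11, Lmod1, Smtn, Actg2 and Synpo2) only Myh11 was called, lower in vivo at 1 week. In vivo Myh6, the alpha myosin heavy chain of heart muscle, fell by 5.89 at 1 week (adjusted p = 4.68e-05) and fell by 8.62 at 2 weeks (adjusted p = 7.11e-06), when its mean was 0.228 ± 0.19 FPKM in vivo and 118 ± 14 FPKM in vitro (SD, n = 2). That difference is many times that of any of the delivered factors.

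In vivo Myl4, the atrial myosin light chain, fell by 4.19 at 1 week (adjusted p = 6.19e-07) and fell by 5.26 at 2 weeks (adjusted p = 3.23e-07). Tnnc1, cardiac troponin C, fell by 3.48 at 1 week (adjusted p = 0.00076), and Actc1, cardiac actin, fell by 5.84 at 2 weeks (adjusted p = 6.51e-06). Of the 12 skeletal muscle markers 4 could be tested, of which 1 (Myl1) was called lower in vivo at 1 week and 4 at 2 weeks. At 1 week Tnnt3 had a log2 difference of 0.72 in the other direction (adjusted p = 0.0076), short of the fold threshold. The summed level of the 12 was 3.37 to 6.89 FPKM in vivo and 14.0 to 88.6 FPKM in vitro, and the myogenic regulators Myod1, Myog, Myf5 and Myf6 had at most 3 fragments in any library. Of 10 smooth muscle markers 1 (Myh11) was called lower in vivo at 1 week, 0 were at 2 weeks, and 0 were called higher. Their median log2 difference was -0.20 at 1 week and -0.54 at 2 weeks.

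A few target genes went the other way. Xirp1, an intercalated disc protein, rose in vivo by 2.49 at 1 week (adjusted p = 0.0017) and by 2.04 at 2 weeks (adjusted p = 0.0033). It had 71 to 73 fragments in vivo and 5 to 13 in vitro at 1 week. Gja5, the connexin of atrial muscle, conduction fibres and arterial endothelium, rose by 2.64 at 1 week (adjusted p = 0.00021), from 0.184 ± 0.020 FPKM in vitro to 1.67 ± 0.17 FPKM in vivo (SD, n = 2). Pln, phospholamban, which restrains the calcium pump, was called higher in vivo at both weeks, with 17 to 25 fragments in vivo and 1 fragment a library in vitro at 1 week, and 78 to 103 against 3 to 4 at 2 weeks. Myl2, the ventricular myosin light chain, was called higher at 2 weeks with 14 to 17 fragments in vivo and 1 to 2 in vitro. With a pseudocount of 1, the count of target genes called higher was 1 at each week, in place of 4 and 5. Leaving out 1 library also brought it down, to 1 without In vivo-1w replicate 2 at 1 week and to 1 without In vivo-2w replicate 1 at 2 weeks.

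**Figure D4:**
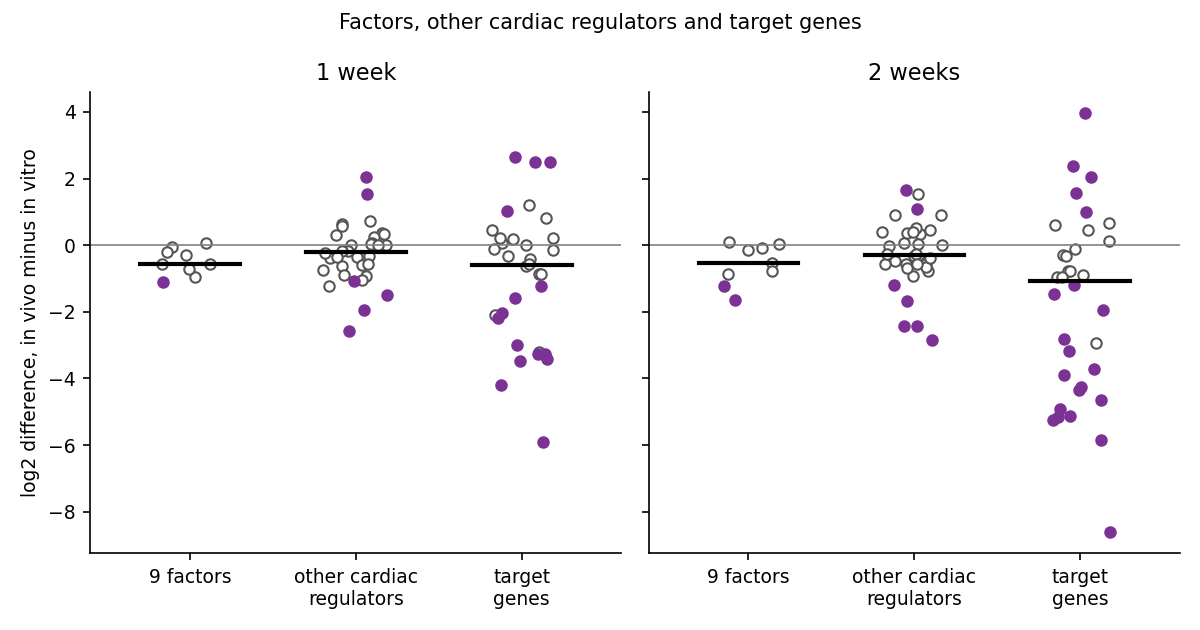
Log2 difference, in vivo minus in vitro, of log2(FPKM + 0.1) at 1 week (left) and 2 weeks (right) for 9 factors, 34 other cardiac regulators and 34 target genes, with a point for each gene, spread sideways at random, and a bar for the median. Filled points passed both thresholds. The factors lie between -1.65 and 0.11, while target genes reach -8.62.

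For the members that spanned more than 1 on the log2 scale over the 8 libraries, the 2 protein-coding genes of most similar pattern were sought among 11443 candidates by Pearson correlation, as a description. The 8 points share their group structure, so a high value is common among genes that differ between heart and culture. For Tbx20 they were Calcoco1 (r = 0.999) and Tnnt2, cardiac troponin T (r = 0.993), and for Gata4 they were Tomm22 (r = 0.994) and Wdr6 (r = 0.993). For Myocd they were Pear1 (r = 0.997) and Gltp (r = 0.996), and for Sall4 Leng8 (r = 0.989) and Galc (r = 0.986). For Nkx2-5, whose pattern rests on 0 to 5 fragments, Terf1 (r = 0.922) and Med21 (r = 0.901) came first, and no likeness can be read from such counts.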

How the data were processed

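RNA of eGFP+ cells was made into libraries with a SMARTER mRNA-seq kit and sequenced and mapped by Novogene. The submitters' processing notes name CASAVA, HISAT2 2.0.5 and mm10. The authors deposited FPKM for 54532 genes in 8 libraries, with the gene length beside them. Multiplied by that length, 100% of the FPKM values came out as whole numbers of fragments after division by a constant of the library (tolerance 0.01), which gave back the fragments on each gene. The deposited FPKM include a scaling between libraries, with a library size 0.863 to 1.15 times the fragments on genes. The authors tested with DESeq2, which needs counts.

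Here log2(FPKM + 0.1) was fitted with limma 3.58.1 in R 4.3.3, with 4 groups and an intensity trend. A gene entered the two-sided test if 2 or more libraries reached an FPKM of 0.5 (15708 genes), and p-values were Benjamini-Hochberg adjusted over all of them. A call needed an adjusted p below 0.01 and a log2 difference beyond 1 either way. Fold changes on this scale understate those of low genes. The procedure was tested on simulated data. Ratios between factors were compared by exact permutation tests (scipy 1.17.1), with the libraries of both weeks pooled. All 10 members are named, with the 2 genes most like each member that spans more than 1 on the log2 scale, and from both gene lists the 3 largest rises and 3 largest falls called at each week. The members and lists were chosen with earlier results of these data known. Replicates differed by more than sampling noise (chi-square per gene 4.25 to 9.22).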

Additional observations from a re-analysis of the deposited data

Results flagged for a closer look

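For 5 of the 34 target genes tested the difference between the heart and culture itself differed between the weeks, and for all 5 it was lower at 2 weeks than at 1 week. The interaction on the log2 scale was -2.76 for Tnni3, cardiac troponin I (SE 0.37, limma adjusted p = 0.0081), and -1.49 for Gja1, the main ventricular connexin (SE 0.13, adjusted p = 0.0034). It was -1.16 for Ankrd1, a stress-responsive muscle ankyrin repeat protein (SE 0.09, adjusted p = 0.0025), -1.07 for Myl4, the atrial myosin light chain (SE 0.13, adjusted p = 0.0064), and -1.004 for Cnn1, calponin of smooth muscle (SE 0.14, adjusted p = 0.0085). Mean levels of Myl4 were 1.81 ± 0.050 FPKM in vivo and 34.7 ± 0.47 FPKM in vitro at 1 week, and 2.25 ± 0.27 FPKM in vivo and 89.9 ± 5.8 FPKM in vitro at 2 weeks (SD, n = 2).

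None of the 5 calls held with the replicate number as a block, where the adjusted p was 0.010 to 0.019, and 8 to 13 of 17 alternatives lost the call of a gene. Over all alternatives the adjusted p ranged from 2.8e-05 to 0.038. Over all genes the interaction called 271, but 27 with the block and 2 to 190 with 1 library left out, fewest without In vivo-1w replicate 1.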

How the results depend on the processing

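Of 846 values of members under alternatives, 823 stayed on the same side of the thresholds, 8 lost a call and 15 gained one. None reversed a call, and 23 changed sign with neither value past the thresholds. The count of members called at 1 week was 1, and it was 0 with no filter on low values, 0 with no intensity trend, 0 with the replicate number as a block, 0 to 1 with 1 library left out, 3 without the scaling between libraries, and 5 at an adjusted p under 0.05 with no fold limit, where 20.6% of all genes were lower. At 2 weeks the count was 2, and it was 1 with a pseudocount of 1, 4 without the scaling, 5 at an adjusted p under 0.05 with no fold limit (25.2% of all genes lower) and 2 with any 1 library left out. At that threshold 2 members (Gata4 and Hand2) passed over time in vitro and 1 (Hand2) in vivo. The replicate block changed no other count of members, and none of the counts of other regulators or target genes by more than 1.5 times. Replicate numbers did not pair the libraries (correlations of deviations -0.048 to -0.011).

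Without the scaling between libraries the median difference of all genes was -0.34 for 1 week and -0.33 for 2 weeks. Calls in the higher direction then made up 36.7% of all calls in place of 60.6% at 1 week, and 32.9% in place of 52.8% at 2 weeks. The members gained there were Myocd (-1.28) and Tbx20 (-1.05) at 1 week, and Gata4 (-1.19) and Tbx20 (-1.11) at 2 weeks, and Mef2c at 2 weeks, Gata6 at 2 weeks and Mef2a at 1 week changed sign.

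Counts of the other cardiac regulators called lower (4 and 5 at 1 and 2 weeks) were 2 and 3 with a pseudocount of 1, 7 and 8 without the scaling, and as few as 2 and 3 with 1 library left out. At 2 weeks a filter at an FPKM of 1 gave 3. Those called higher (2 at each week) came to 1 under several alternatives.

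For the ratios, permutations within the replicate block gave an adjusted p of 0.093 for Mef2c to Gata4 (0.74), Mef2c to Tbx5 (0.59) and Myocd to Gata4 (-0.41). The arrangements within that block are too few for any p under 0.05, so it cannot decide. Leaving out 1 library gave 0.65 to 0.83, 0.53 to 0.66 and -0.46 to -0.34, with adjusted p of 0.071 to 0.095, where fewer libraries raise the smallest p. Within a week Mef2c to Gata4 was 0.51 and 0.97, and permutations that hold the week fixed were not run. An interaction could not be fitted on the libraries of 1 week alone. Depth limits Nkx2-5, with 0 to 5 fragments a library. The cause of the other changes was not tested.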
